A study of Homo sapiens with 8 samples.

Results

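The 48 interferon-stimulated genes examined here were a list of symbols, all of which were found among the 56638 symbols of both count tables, and 46 of them had enough reads to be tested in both knockdowns. They comprised 5 RNA sensors and related helicases, 4 transcription factors and 39 effectors, among them the ISG15 conjugation system, the IFIT, OAS and PARP families, membrane restriction factors and large GTPases. The list is of genes known to respond to interferon. No measured value is part of its rule, but the members were chosen with earlier results of these data known. Counts and medians of the members beside those of all genes are therefore descriptions and not tests of the list. All libraries came from SCC25, an established line of head and neck squamous cell carcinoma derived from the tongue, grown in medium with serum and hydrocortisone, and no interferon treatment is named in the labels. RNA was sequenced in 8 libraries, 2 in each of 4 groups. Cells were transfected with siRNA control or ETS1 siRNA, or carried a stable lentiviral hairpin after puromycin selection. The hairpin was either the non-targeting shCON or shETS1 against the transcription factor ETS1. The knockdowns differ as models: the siRNAs were a pool transfected for a short time, whereas shETS1 was a single hairpin construct (shETS1_3 in the labels) in selected cells, and only the siRNA groups lacked viral transduction. The study's methods describe the siRNA-treated cells as biological replicates. For the stable lines neither the labels nor the methods say that the 2 libraries of a group came from separate cultures, so that p-values there measure the spread between those libraries, which may be technical.

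Interferons are secreted proteins that bind receptors on the cell surface and act through kinases, among them JAK1 and, for types I and III, TYK2. Type I and type III interferons lead to a complex, with STAT2 and IRF9 among its parts, that binds an interferon-stimulated response element (ISRE) in the promoters of target genes, while type II interferon acts mainly through other promoter elements. The products detect viral RNA, block entry, translation or budding of viruses, or tag proteins with ISG15, and many are kept at a basal level in epithelial cells and in tumours without infection.

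Promoter windows of 300 bases, 250 before and 50 after the annotated start of transcription, were available from RefSeq for 29 of the 48 genes. The core of the ISRE, written GAAANNGAAA and searched on both strands, occurred in 21 of these 29 windows (72.4%) and in 3.65% of 27305 windows of all genes. A consensus ETS site, CCGGAAG on either strand, occurred in 1 of the 29 (3.45%), that of LGALS3BP, and in 10.7% of all windows, and it shared no base with the ISRE match there. The following 5 windows are shown because they carry the contrasts described below: IFIT1, OAS3 and BST2 fell after stable ETS1 knockdown, IFIT5 beside IFIT1 was not called, and GBP1 rose. Capitals mark the matches to the ISRE core in either orientation, each sequence runs 5′ to 3′ along its gene, and the positions are those of an exact match to GRCh37.
IFIT1 (chr10:91152130-91152429, plus strand): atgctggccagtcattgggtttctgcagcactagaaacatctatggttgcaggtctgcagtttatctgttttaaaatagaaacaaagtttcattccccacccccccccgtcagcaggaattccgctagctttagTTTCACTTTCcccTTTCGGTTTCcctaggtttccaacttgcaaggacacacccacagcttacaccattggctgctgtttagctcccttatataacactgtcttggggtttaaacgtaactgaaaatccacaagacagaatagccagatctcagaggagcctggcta
IFIT5 (chr10:91174075-91174374, plus strand): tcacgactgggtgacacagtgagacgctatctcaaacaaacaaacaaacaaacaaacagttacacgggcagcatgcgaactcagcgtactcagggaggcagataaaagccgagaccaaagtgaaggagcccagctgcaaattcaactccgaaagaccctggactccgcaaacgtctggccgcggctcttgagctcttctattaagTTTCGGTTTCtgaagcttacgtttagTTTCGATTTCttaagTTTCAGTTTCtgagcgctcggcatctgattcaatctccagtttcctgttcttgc
OAS3 (chr12:113376029-113376328, plus strand): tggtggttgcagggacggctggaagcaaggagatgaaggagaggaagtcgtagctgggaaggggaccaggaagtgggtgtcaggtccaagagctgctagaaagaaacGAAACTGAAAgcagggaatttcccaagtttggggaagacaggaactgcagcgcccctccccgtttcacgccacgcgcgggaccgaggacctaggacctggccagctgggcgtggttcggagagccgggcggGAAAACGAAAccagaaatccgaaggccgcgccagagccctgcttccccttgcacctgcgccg
BST2 (chr19:17516390-17516689, minus strand): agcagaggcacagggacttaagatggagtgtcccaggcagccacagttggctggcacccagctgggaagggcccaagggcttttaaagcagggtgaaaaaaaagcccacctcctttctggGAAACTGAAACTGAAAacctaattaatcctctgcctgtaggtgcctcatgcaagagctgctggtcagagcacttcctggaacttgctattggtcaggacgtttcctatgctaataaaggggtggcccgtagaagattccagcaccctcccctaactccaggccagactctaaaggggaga
GBP1 (chr1:89530842-89531141, minus strand): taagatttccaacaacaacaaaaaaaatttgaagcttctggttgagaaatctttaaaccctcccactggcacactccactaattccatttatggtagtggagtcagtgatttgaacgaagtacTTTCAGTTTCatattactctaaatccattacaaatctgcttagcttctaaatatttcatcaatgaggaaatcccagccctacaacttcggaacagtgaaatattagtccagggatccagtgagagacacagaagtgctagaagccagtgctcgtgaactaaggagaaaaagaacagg
The window of IFIT5, which was not called after either knockdown, held 3 matches, and that of IFIT1 held 2. The match of GBP1 had the letters TTTCAGTTTC, which is also 1 of the 3 matches of IFIT5. Of the 21 genes with a match, 16 were called lower after shRNA, with a median log2 fold change of -0.90 over all 21, and of the 8 without, 7 were called lower, with a median of -0.53. A match is a run of letters and not a measured binding site.

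Total counts ran from 15954616 to 25953213 per library. The siRNA libraries were the less even, with a common dispersion of 0.0192 against 0.00402 for the shRNA libraries, and the replicates of both siRNA groups stood apart in the genes examined here. ETS1 itself fell in both knockdowns, from 82.2 and 72.0 CPM in shCON to 9.75 and 11.0 CPM in shETS1, and from 288 and 248 CPM with siRNA control to 17.4 and 13.2 CPM with ETS1 siRNA (log2 fold change -2.89 ± 0.10 and -4.13 ± 0.19, SE, n = 2 per group, edgeR adjusted p = 3.82e-13 and 0.000173). CPM is a gene's read count scaled to a fixed library size, here after TMM scaling, which sets libraries to a common level over most genes. Because that scaling was done separately for the siRNA and the shRNA table, levels are compared only between a knockdown and its own control. All 8 squamous epithelial markers were at 52.0 CPM or more in every library, the lowest being EPCAM. Of 8 leukocyte markers, 7 or 8 were under 1 CPM in every library, their summed level was 1.61 to 4.22 CPM, and PTPRC reached at most 0.479 CPM. The endothelial marker PECAM1 was at 0 in all libraries. Since these are bulk samples, fewer cells of a type and less RNA per cell cannot be told apart.

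After stable knockdown most of the interferon-stimulated genes fell. Of the 46 tested, 38 were lower in shETS1 than in shCON, 1 was higher and 7 were not called at an adjusted p under 0.1 (edgeR quasi-likelihood test, Benjamini-Hochberg adjustment over 16481 genes). Among all genes tested, 30.9% were called lower and 29.7% higher. The median log2 fold change of the 46 was -0.83, against 0.00066 over all genes. A fall of at least 2-fold was found for 20 of the 46, whereas 7.78% of all genes were called with a fall of that size. The shETS1 libraries both lay below both shCON libraries for 39 of the 46 genes, as they did for 38.6% of all genes. Together the 48 genes took 0.420% and 0.442% of all counts in shCON and 0.220% and 0.218% in shETS1. With DESeq2, and likewise without shETS1 replicate 2, the calls of DHX58, IRF9, EPSTI1 and RTP4 were lost. In the joint fit of all 8 libraries, 29 of the 46 were called after shRNA, where 8401 of 17190 genes were called. DHX58, IRF9, EPSTI1, RTP4, UBE2L6, IRF1, PARP9, PARP14, IFI35 and TRIM22 lost their calls there. IRF9 also lost its call without replicate 1 of either group, and EPSTI1 and RTP4 without shCON replicate 2. Without TMM scaling 4 genes that were not called, IFITM1, PARP12, IFI6 and SP110, turned from just above 0 to below it.

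**Figure D1:**
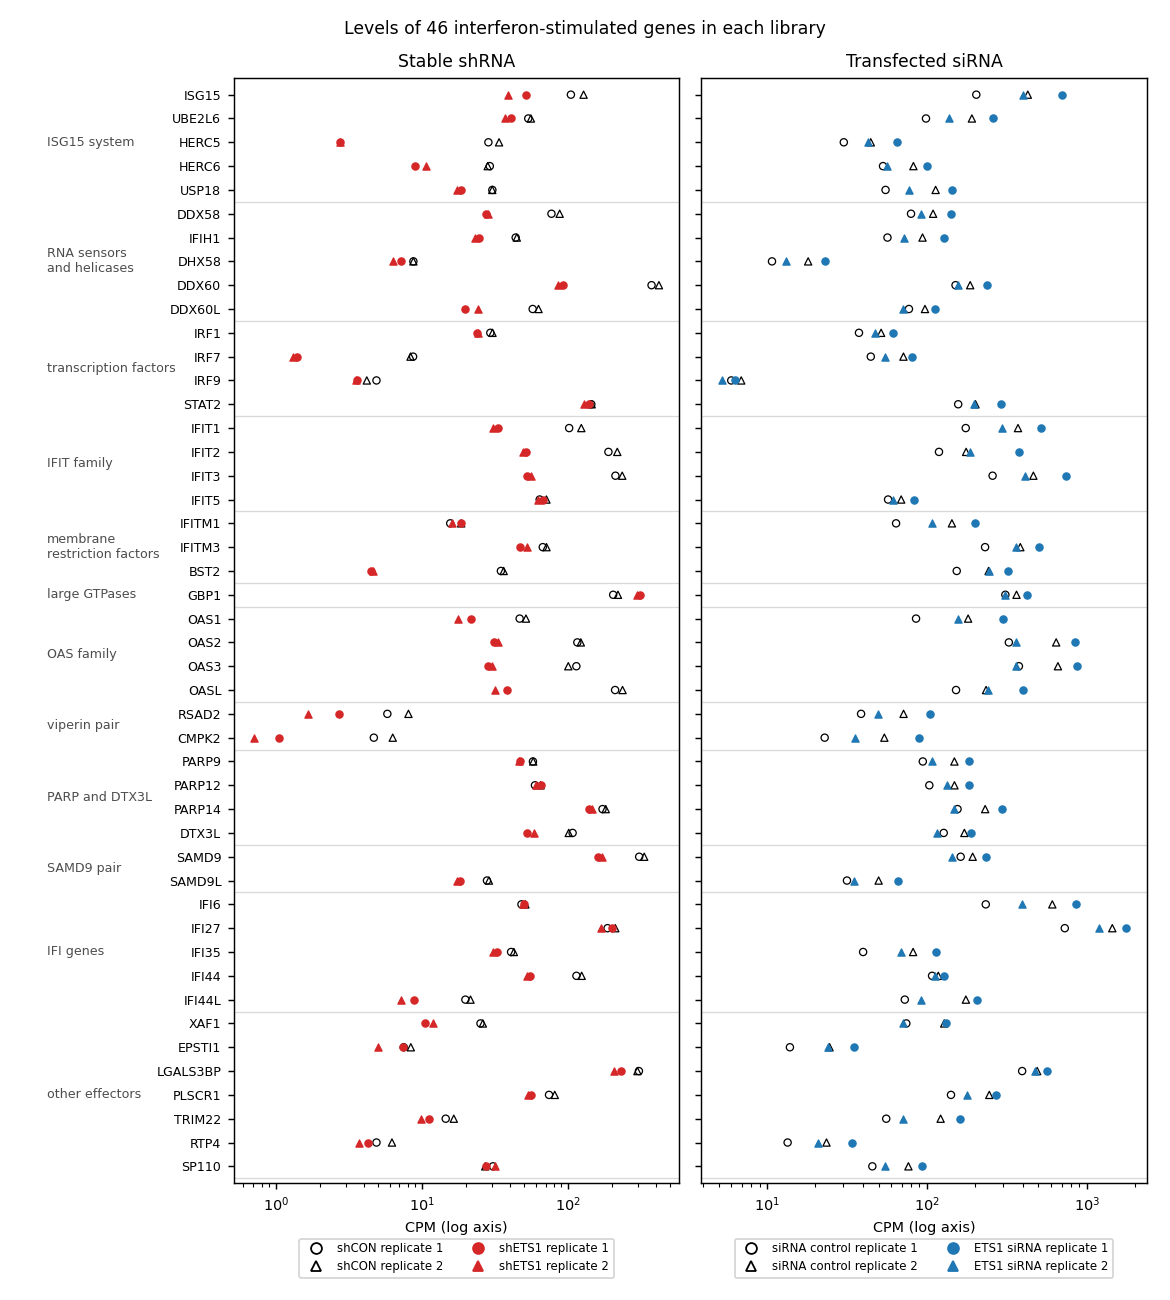
Level of each tested interferon-stimulated gene in each library, in CPM on a log axis, grouped by role. Open symbols are controls, filled symbols are knockdowns, and circles and triangles are replicates 1 and 2; HERC5 and BST2 show the widest gap between shCON and shETS1, and with siRNA the control of replicate 2 lies above that of replicate 1 for every gene.

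All 5 sensors and related helicases fell after stable knockdown, with a median log2 fold change of -1.45. DDX60, a helicase linked to antiviral RNA sensing, was at 372 and 418 CPM in shCON and at 92.6 and 85.1 CPM in shETS1. Its neighbour DDX60L went from 57.2 and 62.7 CPM to 19.6 and 24.1 CPM. DDX58, which encodes the sensor RIG-I, had 76.9 and 87.5 CPM in shCON against 27.5 and 28.1 CPM in shETS1. In these 3 genes the groups were far apart, and the log2 fold changes were -2.15 ± 0.08, -1.45 ± 0.10 and -1.56 ± 0.09 (SE, edgeR adjusted p of 1.22e-12, 1.83e-09 and 1.14e-10). IFIH1, which encodes the sensor MDA5 for long double-stranded RNA, fell less, from 43.8 and 44.5 CPM to 24.4 and 23.0 CPM (-0.90 ± 0.09, edgeR adjusted p = 1.29e-07). DHX58, which encodes LGP2, a regulator of the other sensors, was at 8.74 CPM in both shCON libraries and at 7.18 and 6.37 CPM in shETS1. This was the smallest fall of the sensors (-0.37 ± 0.14, edgeR adjusted p = 0.0290).

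The transcription factors moved by very different amounts. IRF7, which drives the amplification of type I interferon, fell 6.31-fold, from 8.70 and 8.35 CPM to 1.39 and 1.31 CPM (log2 fold change -2.66 ± 0.18, edgeR adjusted p = 2.28e-09). IRF1, an early interferon target and activator, fell from 29.4 and 30.4 CPM to 23.8 and 24.0 CPM (-0.32 ± 0.09, edgeR adjusted p = 0.00585). The DNA-binding subunit IRF9 was low in every library, at 4.89 and 4.20 CPM in shCON and 3.57 and 3.52 CPM in shETS1. IRF9 was called at the limit (-0.36 ± 0.18, edgeR adjusted p = 0.0969, unadjusted 0.0584) and shares exon sequence with unnamed transcripts on both strands. Its partner STAT2 was at 144 and 145 CPM in shCON and 139 and 128 CPM in shETS1 and was not called (-0.12 ± 0.07, edgeR adjusted p = 0.185). Of the ISRE-binding complex, IRF9 and STAT2 thus lay within 0.36 of their controls on the log2 scale.

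Every one of the 5 genes of the ISG15 system fell. ISG15, a ubiquitin-like modifier, was at 104 and 128 CPM in shCON and 51.8 and 38.8 CPM in shETS1 (log2 fold change -1.36 ± 0.11). HERC5, the main ligase that attaches ISG15 to proteins in human cells, was at 28.5 and 33.7 CPM in shCON and 2.74 and 2.73 CPM in shETS1. This 11.3-fold fall was the largest among the 46 genes (-3.50 ± 0.14, edgeR adjusted p = 1.43e-12). HERC6, a relative of HERC5, fell by 1.53 ± 0.11 on the log2 scale. UBE2L6, the conjugating enzyme of the system, went from 53.3 and 55.6 CPM to 40.6 and 36.9 CPM (-0.49 ± 0.08), and USP18, the protease that removes ISG15 and dampens receptor signalling, from 30.3 CPM in both shCON libraries to 18.4 and 17.3 CPM (-0.77 ± 0.09). The adjusted p-values of these 5 genes were 7.15e-05 or lower with edgeR.

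The IFIT proteins bind viral RNA and block its translation. IFIT1 fell from 102 and 123 CPM to 33.3 and 30.8 CPM (log2 fold change -1.81 ± 0.09). IFIT2 was at 189 and 217 CPM in shCON and 51.4 and 48.7 CPM in shETS1 (-2.02 ± 0.08). IFIT3 was at 211 and 234 CPM in shCON and 51.9 and 55.9 CPM in shETS1 (-2.05 ± 0.08). These 3 genes fell to much the same extent, with edgeR adjusted p of 5.16e-11, 2.9e-12 and 1.58e-12. IFIT5 starts 8080 bases beyond IFIT1 on the same strand of chromosome 10 and was at 63.9 and 71.0 CPM in shCON and 67.0 and 62.7 CPM in shETS1. It did not pass the test (-0.06 ± 0.08, edgeR adjusted p = 0.569), although its promoter window holds more ISRE core matches than that of IFIT1. Exons of IFIT2 and IFIT3 overlap LIPA on the other strand, and the use of strand in counting is not stated.

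Of the membrane restriction factors, BST2 fell steeply and IFITM1 was not called. BST2, or tetherin, which holds budding virions on the cell surface, was at 34.7 and 36.2 CPM in shCON and 4.48 and 4.59 CPM in shETS1 (log2 fold change -2.96 ± 0.11, edgeR adjusted p = 1.06e-12). IFITM3, which blocks fusion of viruses in endosomes, went from 67.0 and 71.1 CPM to 46.6 and 52.7 CPM (-0.48 ± 0.08, edgeR adjusted p = 0.000101). IFITM1 had 15.6 and 18.6 CPM in shCON and 18.5 and 15.95 CPM in shETS1, and the groups overlapped (0.01 ± 0.12, edgeR adjusted p = 0.961). IFITM1 and IFITM3 are related genes that lie beside each other with IFITM2. How reads matching several places were handled is not given, so that their counts are uncertain.

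The 4 OAS genes, whose products make a second messenger when they meet double-stranded RNA or, for OASL, bind RIG-I, all fell, with a median log2 fold change of -1.87. OASL was at 209 and 236 CPM in shCON and 38.2 and 31.4 CPM in shETS1 (-2.68 ± 0.10). OAS2 went from 116 and 122 CPM to 31.2 and 33.4 CPM (-1.88 ± 0.08), and OAS3 from 114 and 100.2 CPM to 28.4 and 30.4 CPM (-1.86 ± 0.09). OAS1, beside OAS3 and OAS2 on chromosome 12, fell less (-1.32 ± 0.10). The adjusted p of the 4 genes was 1.01e-08 or lower with edgeR. The viperin pair lies head to head on chromosome 2 and shares exon sequence on opposite strands. RSAD2, which encodes viperin, an enzyme that makes a chain-terminating nucleotide, had 5.80 and 8.08 CPM in shCON and 2.70 and 1.66 CPM in shETS1 (-1.68 ± 0.22, edgeR adjusted p = 5.52e-06). CMPK2, a nucleotide kinase, had 4.69 and 6.31 CPM in shCON and 1.04 and 0.713 CPM in shETS1 (-2.65 ± 0.25, edgeR adjusted p = 1.1e-07).

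GBP1 was the only member called higher. This guanylate-binding GTPase, a target of type II interferon in particular, rose from 203 and 219 CPM in shCON to 308 and 295 CPM in shETS1 (log2 fold change 0.51 ± 0.07, edgeR adjusted p = 1.67e-05), and it stayed higher without any 1 of the 4 libraries. The other large GTPases of the list, MX1 and MX2, could not be tested, since they had 3 and 5 reads in all 8 libraries together. At 3 reads of the shallowest library, the limit of detection was 0.188 CPM, and neither gene exceeded it.

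The lack of MX1 and MX2 reads extended to the genes around them. Both lie on chromosome 21 in a run of 21 protein-coding genes, at chr21:40928369-43916356 in GRCh37 (2.99 Mb), that were each under 1 CPM in every library and had 178 reads in all. This run was looked for after the values of MX1 and MX2 were seen. It holds genes that other epithelial cells express, among them RIPK4, a kinase of keratinocyte differentiation, with 6 reads, BACE2, a protease, with 14, and the transcriptional regulators ZBTB21 and PRDM15 with 9 and 12. On one side the next gene, SH3BGR, had a mean of 1.79 CPM and HMGN1, 3 genes further on, 299 CPM, and on the other side SLC37A1 had 3.74 CPM and NDUFV3 34.6 CPM. Of the 222 protein-coding genes of the chromosome, 49.5% were under 1 CPM in every library, and the longest other run of such genes had 33 members, the KRTAP genes from KRTAP24-1 to KRTAP19-8, within 0.757 Mb. The same genes were near 0 in the controls and the knockdowns of both experiments, and the sequence of this region in these cells was not analysed here.

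**Figure D2:**
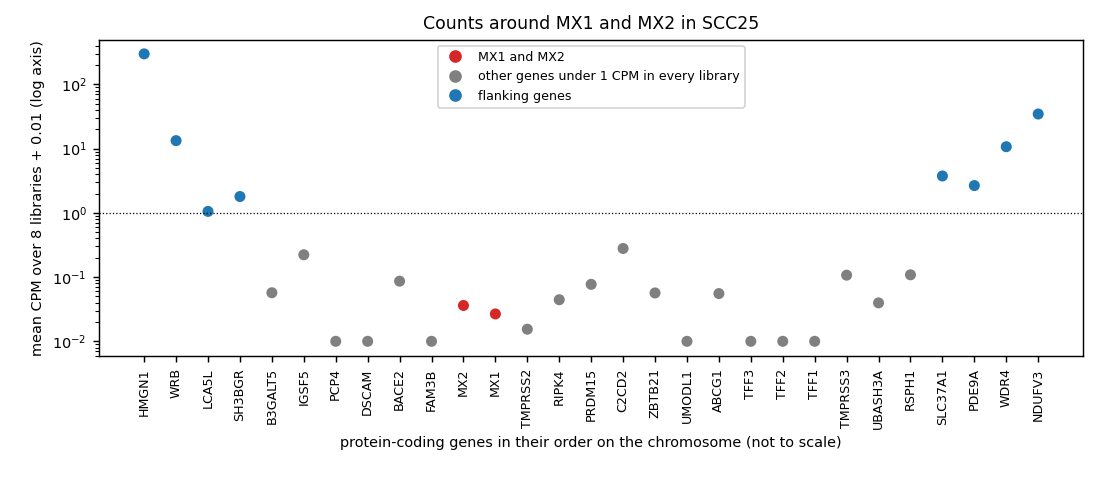
Mean CPM over the 8 libraries, plus 0.01, on a log axis, for protein-coding genes around MX1 and MX2 in their order along the chromosome, which is not drawn to scale. All 21 genes from B3GALT5 to RSPH1 lie below the dotted line at 1 CPM, and the flanking genes on both sides lie above it.

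Of the 4 PARP and DTX3L genes, 3 fell and PARP12 was not called, and both SAMD9 genes fell. PARP14, a mono-ADP-ribosyltransferase, was at 172 and 181 CPM in shCON and 138 and 145 CPM in shETS1 (log2 fold change -0.32 ± 0.07). DTX3L, a ubiquitin ligase that pairs with PARP9, went from 107 and 101 CPM to 52.6 and 58.1 CPM (-0.91 ± 0.08), while PARP9 on the opposite strand fell by 0.31 ± 0.08. PARP12 was at 59.3 and 64.7 CPM in shCON and 65.7 and 60.6 CPM in shETS1 and was not called (0.03 ± 0.08, edgeR adjusted p = 0.814). DTX3L had the largest change of these 4, and its exons overlap those of PARP9. SAMD9, a restriction factor of poxviruses, fell from 306 and 331 CPM to 160.0 and 172 CPM (-0.94 ± 0.08), and SAMD9L beside it from 27.8 and 28.7 CPM to 18.2 and 17.4 CPM (-0.67 ± 0.09). The 5 called genes of this paragraph had an edgeR adjusted p of 0.00235 or lower.

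Of the 5 IFI genes, 3 fell, and IFI27 and IFI6 were not called. IFI44 went from 114 and 124 CPM to 54.8 and 52.5 CPM (log2 fold change -1.15 ± 0.08, edgeR adjusted p = 1.41e-09), and its neighbour IFI44L (-1.37 ± 0.12) and IFI35 (-0.40 ± 0.08) fell as well. IFI27 was at 186 and 210.1 CPM in shCON and 199 and 166 CPM in shETS1 (-0.12 ± 0.09, edgeR adjusted p = 0.273). IFI6 was at 47.9 and 51.0 CPM in shCON and 49.9 and 49.4 CPM in shETS1 (0.01 ± 0.08, edgeR adjusted p = 0.962), and its window holds 3 ISRE core matches. Among the 7 other effectors, LGALS3BP, a secreted glycoprotein, went from 305 and 298 CPM to 231 and 206 CPM (-0.47 ± 0.08). PLSCR1, a membrane scramblase, went from 74.0 and 81.0 CPM to 55.6 and 53.2 CPM (-0.51 ± 0.08), and XAF1, a pro-apoptotic protein, from 25.1 and 26.1 CPM to 10.5 and 11.9 CPM (-1.19 ± 0.11). EPSTI1, TRIM22 and RTP4 fell by 0.36, 0.56 and 0.48 on the log2 scale, and SP110 was not called (0.04 ± 0.10, edgeR adjusted p = 0.776).

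**Figure D3:**
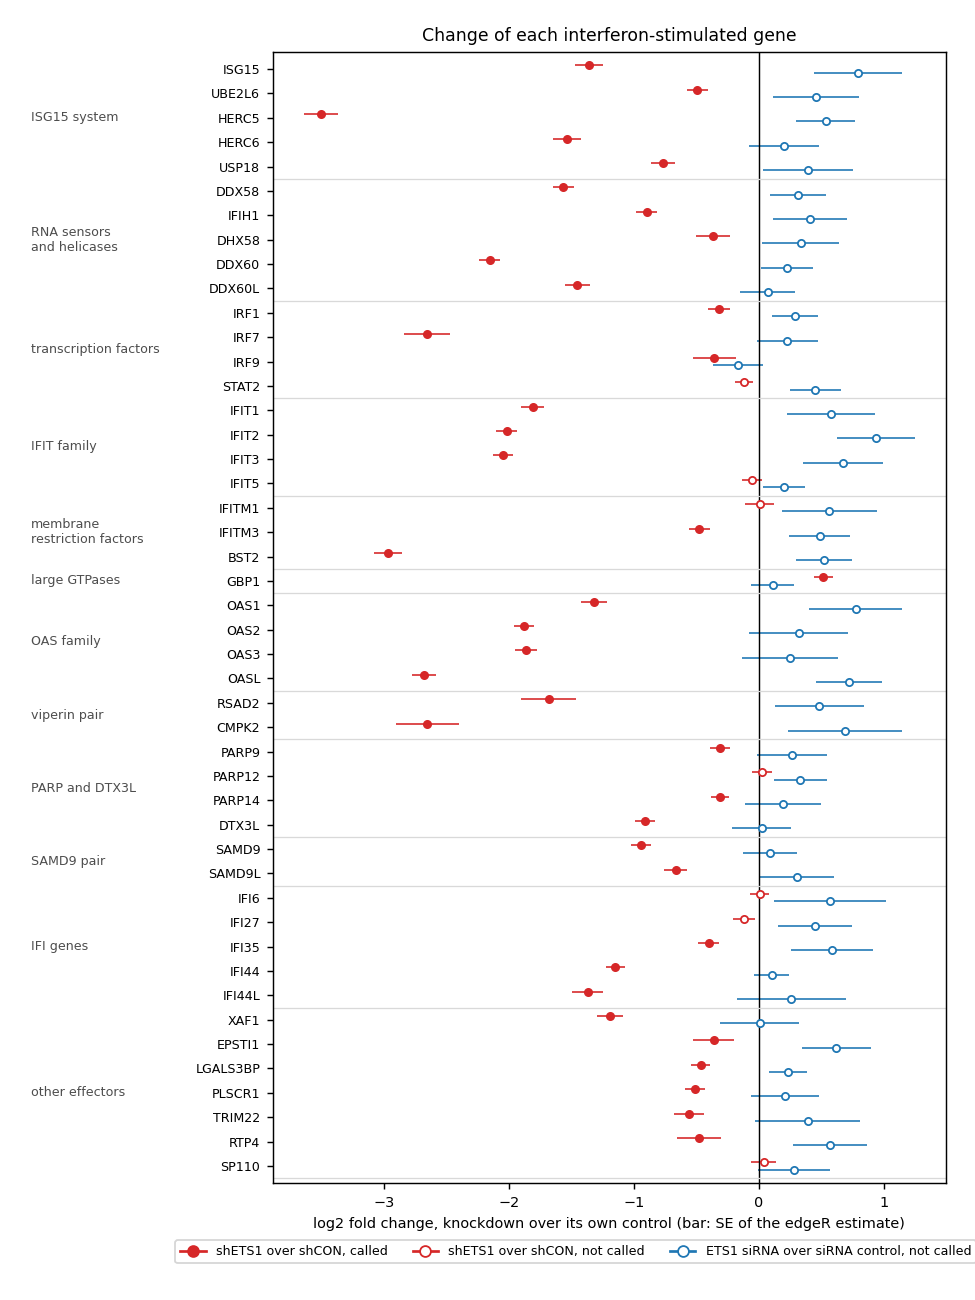
Log2 fold change of each gene over its own control, with the SE of the edgeR estimate as bars; red is shETS1 over shCON, blue is ETS1 siRNA over siRNA control, and filled symbols passed an adjusted p of 0.1. Red symbols spread from -3.50 for HERC5 to 0.51 for GBP1, while blue symbols lie above 0 for 45 of 46 genes with wider bars and none filled.

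Genes that neighbour each other had similar fold changes in some cases and different ones in others, and no difference between neighbours was tested. IFIT2 and IFIT3 had log2 fold changes of -2.02 and -2.05. HERC6 and HERC5 lie 14020 bases apart on chromosome 4 and fell by 1.53 and 3.50 on the log2 scale. The 4 IFIT genes occupy chr10:91043451-91181362, and the last of them was the 1 that was not called. SAMD9 and SAMD9L, DDX60 and DDX60L, IFI44L and IFI44, and OAS1, OAS3 and OAS2 each fell together.

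Short-term knockdown gave no call in the list. With ETS1 siRNA, 0 of 46 genes were called lower and 0 higher by the edgeR test, where 2.27% and 1.13% of 14742 genes were called lower and higher, and DESeq2 called 0 as well. At an unadjusted p under 0.05 there were 3 (IFIT2, OASL and BST2), against 18.5% of all genes at that limit. The fold changes nevertheless lay on the same side: 45 of the 46 were above 0, where 49.8% of all genes were below it. The median of the 46 was 0.33 on the log2 scale against 0.0018 over all genes, and the smallest edgeR adjusted p was 0.177. Both ETS1 siRNA libraries lay above both siRNA control libraries for 3 of the 46 genes, a pattern found for 25.7% of all genes. In the other 43 the groups overlapped. Single libraries set these values. Leaving out ETS1 siRNA replicate 1 gave a median of -0.07, and leaving out replicate 1 of the control gave 0.06. Leaving out replicate 2 of the control gave 0.78 with 16 genes called higher, and leaving out replicate 2 of the knockdown gave 0.70 with 3 called higher.

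The spread between replicates was wide for these genes in the siRNA experiment and narrow in the shRNA experiment. All 46 genes were higher in siRNA control replicate 2 than in replicate 1, and all 46 were lower in ETS1 siRNA replicate 2 than in replicate 1. On the log2 scale, replicate 2 minus replicate 1 had a median of 0.73 with siRNA control and -0.75 with ETS1 siRNA, where all 14742 genes had medians of 0.0043 and 0.0011. Of all genes, 29.4% had this order in both groups. ETS1 siRNA replicate 1 was the highest of the 4 libraries for 45 of the 46 genes and for 25.3% of all genes. In 43 genes ETS1 siRNA replicate 2 lay below siRNA control replicate 2, as it did for 50.4% of all genes. Summed over the 48 genes, the level was 6039.5 and 10259 CPM in siRNA control replicates 1 and 2 and 13665 and 8050.0 CPM in ETS1 siRNA replicates 1 and 2. In the stable lines the sums were 3972 and 4274 CPM in shCON and 2339.6 and 2236 CPM in shETS1, and the replicates differed by a median of 0.11 in shCON and -0.08 in shETS1. Within each siRNA group, the library with the higher sum was also the shallower. The summed level of the 8 squamous markers had the same order: 15552 and 20293 CPM with siRNA control, 27140 and 23404 CPM with ETS1 siRNA. KRT5, KRT14, KRT6A, KRT17 and TP63 had this order in both groups, SFN only with siRNA control and CDH1 only with ETS1 siRNA. EPCAM had the opposite order, at 104.9 and 79.4 CPM with siRNA control and 52.0 and 75.5 CPM with ETS1 siRNA. The part of depth and of these markers in the interferon-stimulated gene levels was not tested.

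**Figure D4:**
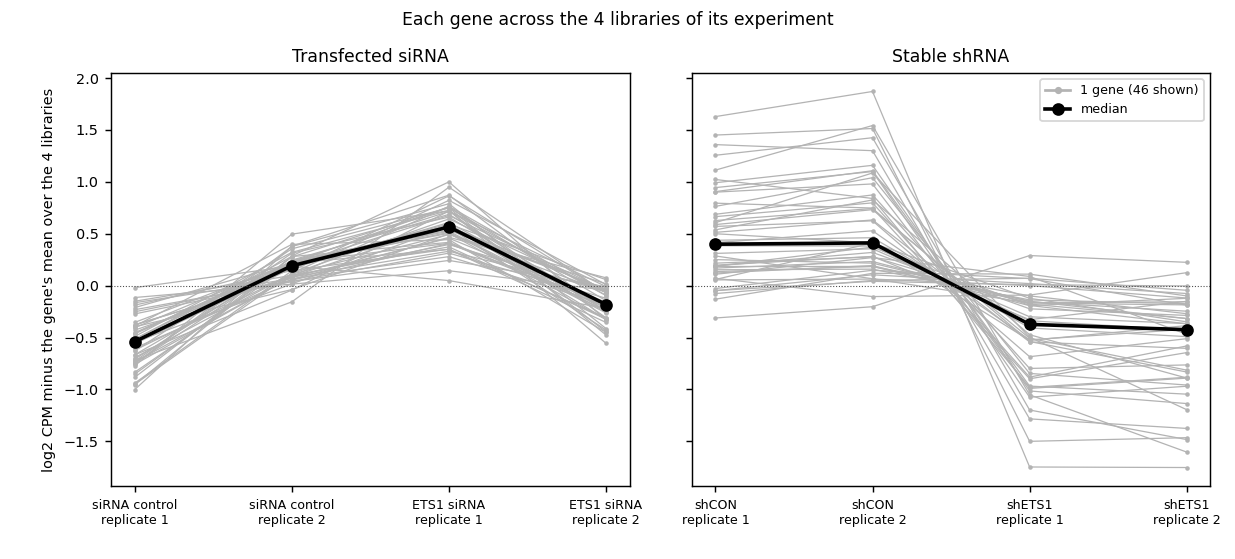
Each gray line joins the values of 1 gene in the 4 libraries of an experiment, as log2 CPM minus its mean over those libraries, and the black line is the median of 46 genes. In the siRNA panel the replicates of each group are far apart and ETS1 siRNA replicate 1 is highest, while in the shRNA panel the replicates of a group lie close together and shETS1 lies below shCON for most genes.

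The sensors and transcription factors showed this order in the siRNA libraries, given here as siRNA control replicates 1 and 2 and then ETS1 siRNA replicates 1 and 2. DDX58 had 79.7, 109.6, 142 and 92.7 CPM. IFIH1 had 56.8, 94.1, 128 and 72.1 CPM, and DHX58 had 10.8, 18.1, 23.2 and 13.1 CPM. In each of these sensors the highest control exceeded the lower knockdown library. DDX60 had 151, 187, 239 and 156 CPM, and DDX60L had 77.4, 97.5, 113 and 71.1 CPM. IRF7, the factor with the steepest fall in the stable line, had 44.7, 71.5, 81.4 and 54.5 CPM. IRF1 had 37.7, 51.8, 61.6 and 47.7 CPM, a narrower range of the same shape. STAT2 had 157, 202, 293 and 198 CPM. IRF9 had 5.99, 6.91, 6.28 and 5.22 CPM and was the 1 gene of the 46 with a fold change below 0.

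Effectors differed in how widely they swung across the siRNA libraries, in the same library order. IFIT2 had 119, 176, 379 and 187 CPM and the largest siRNA fold change (0.94 ± 0.31 on the log2 scale, edgeR adjusted p = 0.177, unadjusted 0.0161). OASL had 152, 235, 398 and 241 CPM (0.72 ± 0.26, edgeR adjusted p = 0.209). BST2 had 154, 244, 323 and 246 CPM (0.52 ± 0.22, edgeR adjusted p = 0.268). These were the only 3 genes in which the groups did not overlap, and in OASL and BST2 the lower knockdown library lay just above the higher control. ISG15 had 204, 429, 698 and 398 CPM, IFIT1 had 175, 372, 519.9 and 296 CPM, and IFIT3 had 258, 464, 742 and 409 CPM. OAS2 had 326, 645, 848 and 363 CPM, and OAS3 had 377, 662, 875 and 360.3 CPM. Here the second knockdown library lay near or below the lower control. IFI27, an abundant member in these libraries, had 730.3, 1447, 1773 and 1198 CPM, and IFI6 had 234, 610.1, 858 and 394 CPM. IFI44 had a narrow range, with 108, 118, 129 and 113 CPM, and GBP1 had 310.4, 364, 422 and 307 CPM. LGALS3BP had 395, 491, 565 and 474 CPM, PLSCR1 had 142, 246, 271 and 179 CPM, and XAF1 had 74.5, 129, 133 and 71.4 CPM. The smaller systems gave the same picture. UBE2L6 had 98.9, 192, 260.2 and 138 CPM, USP18 had 55.2, 114, 145 and 77.2 CPM, RSAD2 had 38.8, 71.6, 104 and 49.7 CPM, and CMPK2 had 23.0, 54.3, 89.1 and 35.4 CPM. IFITM3 had 232, 385, 502 and 361 CPM, and IFITM1 had 64.3, 144, 199.96 and 107 CPM. For these 6 genes the lowest library was siRNA control replicate 1 in each case. Finally, PARP14 had 156, 232, 294 and 148 CPM, DTX3L had 128, 172, 188 and 116 CPM, PARP12 had 104, 149, 184 and 134 CPM, SAMD9 had 163, 194, 234 and 145 CPM, and SAMD9L had 31.7, 50.01, 66.0 and 34.9 CPM.

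Whether the knockdowns differed was asked in a joint fit of the 8 libraries, where the siRNA effect was subtracted from the shRNA effect. It was past the threshold for 32 of the 46 genes, all lower, and for 0 in the higher direction, against 19.7% and 15.1% of 17190 genes called lower and higher (edgeR adjusted p under 0.1; 0 of the 46 were above 0 at an unadjusted p under 0.05, and DESeq2 called 28 in all). The median of the 46 was -1.06, and that of all genes -0.02. Leaving out replicate 1 of ETS1 siRNA moved the median of the 46 to -0.70, and leaving out replicate 2 of its control moved it to -1.58. By role, the differences passed for 4 of 5 sensors, 3 of 4 transcription factors and 25 of 37 effectors. The largest was that of HERC5 (-4.06 ± 0.33, edgeR adjusted p = 3.5e-05), followed by BST2 (-3.50 ± 0.30) and OASL (-3.42 ± 0.34). STAT2, which neither knockdown called alone, was called for the difference (-0.59 ± 0.24, edgeR adjusted p = 0.0945). IRF9 and GBP1 were not (edgeR adjusted p of 0.585 and 0.188). Without 1 library at a time, 22 to 41 of the 46 were called lower. The method of knockdown, its duration, viral transduction, selection and the library table all change together between the experiments and cannot be told apart. Structural RNAs change with them, at most 0.00339% of counts in the siRNA libraries and 5.61% to 12.3% in the stable lines.

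Upstream of these genes, the ligands were nearly undetected, and single receptor chains were called in either direction. Of 21 interferon genes, 2 had enough reads to be tested in each knockdown (IFNE in both, IFNK after shRNA and IFNL1 after siRNA), and edgeR called 0, with 0 at an unadjusted p under 0.05. IFNE, an epithelial type I interferon, was at 0.872 to 2.06 CPM in the 8 libraries. IFNK, the interferon of keratinocytes, was at 1.43 to 2.02 CPM in the stable lines and 0.232 to 1.06 CPM in the siRNA libraries. IFNB1, IFNG and IFNL1 are named for their values. IFNB1 had at most 0.581 CPM and IFNG was at 0 in every library. IFNL1 was at 0.201 and 0.934 CPM with siRNA control and 0.755 and 0.197 CPM with ETS1 siRNA, from 4 to 15 reads. This is the replicate order of the members, whereas IFNE had the opposite order and IFNK this order only with siRNA control. The part of the ligands in the levels of the members was not tested. Of the 6 receptor chains, 3 fell after shRNA and 1 rose, where 30.9% of all genes fell and 29.7% rose. IFNAR1 and IFNAR2, the type I receptor, fell by 0.31 ± 0.09 and 0.70 ± 0.15 on the log2 scale, and the type II chain IFNGR2 by 0.38 ± 0.08. IFNGR1, its partner, rose from 123 and 131 CPM to 318 and 297 CPM (1.27 ± 0.08, edgeR adjusted p = 3.01e-10). The type III chains IFNLR1 and IL10RB were not called (0.01 ± 0.09 and 0.15 ± 0.09). JAK1 rose from 109.9 and 116 CPM to 218 and 210.4 CPM (0.92 ± 0.07, edgeR adjusted p = 1.08e-08), STAT3 rose by 0.19 ± 0.08, and JAK2 fell by 0.36 ± 0.15. TYK2 was not called (-0.15 ± 0.08). The type I receptor and the factors below it thus moved by less than 1 on the log2 scale, except IRF7.

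Genes that induce interferon, restrain the response or belong to it but not to the list also went both ways. Of 73 such genes and ligands, receptors and transducers, 53 were tested in each knockdown, and 26 were called lower and 10 higher after shRNA (the shares over all genes are given above), with 2 lower and 0 higher after siRNA by edgeR. TMEM173, which encodes STING, fell in both, by 1.08 ± 0.12 after shRNA and 0.87 ± 0.12 after siRNA (edgeR adjusted p of 8.42e-07 and 0.0210). PTPN11, which encodes the phosphatase SHP2, fell by 0.44 ± 0.08 after shRNA and by 1.33 ± 0.15 after siRNA (edgeR adjusted p of 0.000168 and 0.0110). TRIM25, a ligase for RIG-I, fell after shRNA by 0.84 ± 0.11, and the kinase IKBKE and the factor IRF3 fell by 0.67 ± 0.13 and 0.36 ± 0.08, while the kinase TBK1 rose by 0.51 ± 0.08. Among inhibitors SOCS1 fell by 0.74 ± 0.26, and PTPN2 and IRF2 rose by 0.33 ± 0.07 and 0.20 ± 0.09. Of the interferon-stimulated genes outside the list, PML fell by 1.10 ± 0.10, HELZ2 by 0.95 ± 0.09 and TRIM14 by 1.24 ± 0.12, whereas PARP10 rose by 0.97 ± 0.09. GBP2, a neighbour and relative of GBP1, rose from 59.9 and 61.9 CPM to 188 and 169.6 CPM (1.55 ± 0.08, edgeR adjusted p = 3.31e-11).

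**Figure D5:**
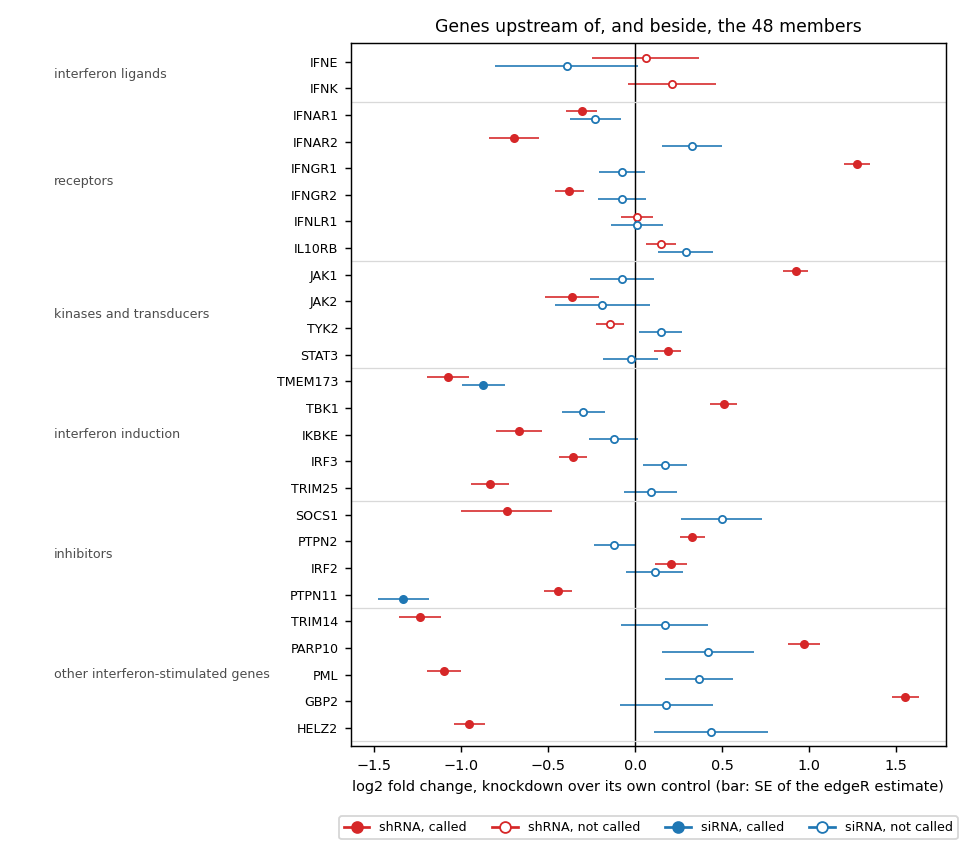
Log2 fold change over its own control, with the SE of the edgeR estimate, of genes upstream of and beside the 48 members; filled symbols passed an adjusted p of 0.1. IFNGR1, JAK1, PARP10 and GBP2 lie to the right of 0 after shRNA while IFNAR2, TMEM173, TRIM14 and PML lie to the left, and after siRNA only TMEM173 and PTPN11 are filled.

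Among the 46 tested genes, levels per length of exon, which allow genes to be compared within a table, were highest for ISG15 in shCON, at 134 CPM per kilobase, followed by LGALS3BP at 88.0 and IFI44 at 58.3, and lowest for IRF9 at 0.702. With siRNA control, IFI6 was highest at 451 CPM per kilobase, followed by ISG15 at 365 and IFI27 at 263, and IRF9 was again lowest at 0.997. Exon lengths came from the union of annotated transcripts and not from those expressed.

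Some markers of other cell types rose with the fall of the interferon-stimulated genes in the stable lines. The fibroblast-associated genes DCN and LUM were at 63.8 to 71.6 and 159.7 to 183 CPM in shCON and at 644 to 677 and 1287 to 1355 CPM in shETS1, and the endothelial receptor KDR went from 1.69 to 1.83 CPM to 23.8 to 23.9 CPM, while PDGFRB stayed under 1 CPM in every library. The 4 fibroblast markers summed to 231 and 260.2 CPM in shCON and 2041 and 1940.4 CPM in shETS1. The 8 squamous markers summed to 15027 and 15125 CPM in shCON and 24440.5 and 24121 CPM in shETS1. Of these, KRT5, KRT14, KRT6A and KRT17 were called higher in shETS1 and CDH1 was not called. TP63, EPCAM and SFN were called lower, with log2 fold changes of -0.40, -0.60 and -0.17. Structural RNAs took 5.61% and 6.63% of counts in shCON and 12.3% and 9.64% in shETS1, and at most 0.00339% in the siRNA libraries. The part of these differences in the results was not tested, except that leaving out the structural RNAs left 38 genes called lower. The exons of ISG15, DDX58, IRF1, IFITM1, IFITM3, OAS1, XAF1, TRIM22, SP110 and IFI6 overlap those of other annotated transcripts, so that their counts can include reads of those transcripts.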

How the data were processed

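RNA was extracted by the authors from SCC25 cells, TruSeq libraries were sequenced as short single-end reads, and reads were mapped to GRCh37 with TopHat2 2.1.1 and Bowtie2 2.2.6 and assigned to genes with featureCounts 1.5.0 (names and versions from the submitters' processing notes). Whether counting used strand, and how reads matching several places were handled, is not given in the sources used here. The deposited values are raw counts per gene symbol, without normalization, in 1 table per knockdown, and 0 columns were left unmapped.

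Groups were taken from the labels, and for either knockdown the 4 libraries of its table were fitted by group alone. Testing was two-sided, by the quasi-likelihood method of edgeR 4.0.16 (R 4.3.3) after filterByExpr and TMM scaling, and p-values were adjusted by Benjamini-Hochberg over all genes tested. A gene was called at an adjusted p under 0.1. The difference between the knockdowns was a contrast of shRNA effect minus siRNA effect in a fit of all 8 libraries. Log2 fold changes carry an SE derived from the F statistic. CPM used the TMM-scaled library size, and the precision of low values is limited by depth, with 3 reads taken as the limit of detection. The test was run on simulated data with known changes, where it recovered most changed genes, and where the share of unchanged genes among its calls was above the threshold of 0.1 for both knockdowns.

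The members, the list of 73 pathway genes and the markers were chosen with earlier results of these data known. Values in each library are given for all sensors and transcription factors and for up to 3 members of each other role with the highest mean CPM. Of the pathway genes, those named are the ligands, receptors and transducers above 1 CPM on average, and up to 5 called genes of each other group by adjusted p after shRNA. Other genes named for their values are said to be so. Some genes of the pathway are not reported here.

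Alternatives were DESeq2 1.42.0, its size factors in edgeR, library size only, leaving out 5 structural RNAs, a minimum of 10 counts per library or no minimum at all, protein-coding genes with at least 1 TPM, a replicate block, a joint fit of the 8 libraries for either knockdown, a threshold of 0.05, and omission of each library in turn. A block with the replicate numbers crossed was added after seeing the data. Gene positions and exon lengths came from GENCODE v44 lifted to GRCh37. Promoter windows came from the RefSeq table of GRCh38.p14, with 29 of 48 members matched, and all but that of HERC5 were placed on GRCh37 by exact match of their sequence.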

Additional observations from a re-analysis of the deposited data

Results flagged for a closer look

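Results are listed here because the effect of the hairpin differed from that of the siRNA by a test of the difference itself (edgeR, contrast of shRNA effect minus siRNA effect, adjusted p under 0.1). It was past the threshold and below 0 for 32 members. On the log2 scale the differences of the sensors were DDX58 -1.90, IFIH1 -1.32, DDX60 -2.40 and DDX60L -1.54. Those of the transcription factors were IRF1 -0.63, IRF7 -2.90 and STAT2 -0.59. In the ISG15 system they were ISG15 -2.17, HERC5 -4.06, HERC6 -1.76 and USP18 -1.18, and in the IFIT family IFIT1 -2.41, IFIT2 -2.97 and IFIT3 -2.74. The membrane restriction factors gave IFITM3 -0.98 and BST2 -3.50, the OAS family OAS1 -2.11, OAS2 -2.22, OAS3 -2.13 and OASL -3.42, and the viperin pair RSAD2 -2.18 and CMPK2 -3.36. For the PARP and SAMD9 groups they were DTX3L -0.95, SAMD9 -1.05 and SAMD9L -0.99. Among IFI genes and other effectors they were IFI35 -1.01, IFI44 -1.27, IFI44L -1.64, XAF1 -1.22, EPSTI1 -1.001, LGALS3BP -0.72 and RTP4 -1.07. Of the pathway genes named, the differences below 0 were IFNAR2 -1.04, TRIM25 -0.94, IKBKE -0.57, IRF3 -0.55, SOCS1 -1.26, PML -1.49, HELZ2 -1.41 and TRIM14 -1.42, and those above 0 were IFNGR1 1.33, JAK1 0.98, TBK1 0.79, PTPN11 0.87, PTPN2 0.43 and GBP2 1.35. For IFNGR1, JAK1, TBK1, PTPN2 and GBP2 the hairpin effect was above 0, and PTPN11 fell after both knockdowns, further after siRNA.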

How the results depend on the processing

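The 38 calls of lower genes after shRNA ranged from 28 to 41, and the single higher call was made in each of the alternatives run. DESeq2 made 35 calls in all among the members and called 7995 of 16481 genes. With all 8 libraries in one fit there were 29, and 8401 of 17190 genes were called. With library size only, the median of all genes after shRNA moved to -0.12 and that of the members to -0.96, and without 1 library at a time the members' median lay between -0.83 and -0.79. After siRNA the number of members called higher, 0 as reported, was 19 with no filter on low counts, 2 with all 8 libraries in one fit and 0 with DESeq2, and it ranged from 0 to 16 without 1 library at a time (16 without siRNA control replicate 2). The number with a higher effect of shRNA than of siRNA, 0 as reported, ranged from 0 to 1 without 1 library at a time. The cause was not tested. Over all genes, 335 were called lower and 167 higher after siRNA, against totals of 97 with the replicate block, 3238 with the crossed block, 1466 with no filter, 797 by DESeq2, 790 among protein-coding genes with at least 1 TPM, 2166 in the joint fit and 72 to 1478 without 1 library at a time. The replicate number marks no shared culture in the labels, and with 2 pairs per knockdown it cannot be shown to pair libraries. Same-numbered libraries deviated in opposite directions (r = -0.54 for siRNA and -0.24 for shRNA). With the replicate number as a block, 37 members were called lower and 1 higher after shRNA, 0 after siRNA, and 25 differed between knockdowns. With the numbers crossed, chosen after seeing the data, 23 members were called higher after siRNA and 41 in all after shRNA, and 39 differed between knockdowns, 1 of them higher. MX1, MX2 and most interferon ligands had too few reads to be tested.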

Other observations

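Of 25 further interferon-stimulated genes, 13 fell and 4 rose after stable knockdown (edgeR adjusted p under 0.1), where 30.9% of all genes fell and 29.7% rose. Some genes outside the naming rule are given here, chosen after their values were seen. LAMP3 and ISG20 fell by 1.47 ± 0.19 and 1.38 ± 0.17 on the log2 scale, and EIF2AK2, which encodes the kinase PKR, and IFI16, a DNA sensor, by 0.76 ± 0.09 and 0.71 ± 0.09 (SE, n = 2 per group; edgeR adjusted p of 4.7e-06, 2.19e-06, 3.03e-06 and 1.74e-06). TICAM1, the adaptor of the receptor TLR3, had 3.02 and 2.04 CPM in shCON and 0.870 and 1.35 CPM in shETS1 (-1.17 ± 0.29; edgeR adjusted p = 0.00226).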
